A study of Mus musculus with 3 samples.

Results

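The genes described here are 10 lipogenesis enzymes and regulators of the mouse kidney: Srebf1, Mlxipl, Me1, Acaca, Acacb, Fasn, Elovl6, Scd1, Scd2 and Lpin1. They were taken by gene symbol, and all 10 were found once among the 32285 genes counted in each library. Droplet single-cell RNA sequencing was run on whole kidneys of male mice aged 28 weeks in 3 groups. The db/db fructose group carried the db/db genotype and received a diet with 60% fructose for 20 weeks from the age of 8 weeks. The db/db control group had the same genotype and a fructose-free control diet, and the db/m control group had the db/m genotype and that control diet over the same time. The db allele is a mutation of the leptin receptor, and db/db mice are obese and diabetic, while db/m mice carry 1 mutant copy. Each group is 1 library. The labels do not give the number of mice behind it, so no difference below has a replicate check, and an effect of genotype or diet cannot be told apart from a difference between single preparations.

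Lipogenesis builds fatty acids from acetyl-CoA and joins them to glycerol. Acetyl-CoA carboxylase makes malonyl-CoA, fatty acid synthase turns it into palmitate with NADPH that malic enzyme helps to supply, and elongases and desaturases lengthen the chain and add double bonds. The transcription factor SREBP-1, encoded by Srebf1, is driven by insulin, and ChREBP, encoded by Mlxipl, is driven by sugar metabolites, fructose among them in liver. In the kidney the proximal tubule reabsorbs glucose, takes up fructose and draws most of its energy from fatty acid oxidation. The enzymes are known best from liver and fat.

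Cells were clustered over the 3 libraries and clusters were named from marker genes. Of the kept cells, 16049 were from db/db fructose, 16226 from db/db control and 9940 from db/m control mice, with median depths of 1531, 1628 and 1679 UMIs (unique molecular identifiers, 1 per captured RNA molecule). The 6 classes compared between libraries held at least 100 cells in each. They were proximal tubule-like cells, with 8632, 6318 and 5873 cells, and thick ascending limb-like, distal convoluted tubule-like, connecting tubule and principal-like, intercalated-like and endothelium-like cells. Erythroid-like cells, with 104, 113 and 132 cells, also reached this number but were left out of the comparisons. Clusters with no name held 8.59% of db/db fructose, 24.2% of db/db control and 5.64% of db/m control cells. Mitochondrial RNA also set the libraries apart, with medians in proximal tubule-like cells of 9.21% of UMIs in db/db fructose, 20.5% in db/db control and 14.5% in db/m control. Libraries shared between 379 and 780 cell barcodes, and each barcode was treated as belonging to its own library. A level below is the summed UMIs of a gene in a class scaled to counts per 1000000 UMIs of that class (CPM), given in the order db/db fructose, db/db control, db/m control unless each is named. Intervals are exact 95% intervals and cover counting error only. A gene was measured in a class where it reached 10 CPM in either library compared, and is called higher or lower from a 1.5-fold difference on, a rule of size and not a test. Markers of fat cells, which make many of these enzymes, were at or near 0 over all kept cells: of 7 adipocyte markers, Cfd, Cidec and Lep had 0 UMIs in every library and Adipoq had 2, 1 and 1, while the lipase gene Lipe, which tubule cells also express, had 606, 527 and 322.

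Among the regulators, Mlxipl was a proximal tubule gene and Srebf1 was spread over the nephron and vessels. Mlxipl (chromosome 5, 135089890 to 135138382, plus strand of mm10) stood at 613, 556 and 490 CPM in proximal tubule-like cells. In the other 5 compared classes its level was between 5.35% and 19.9% of that in the same library. Srebf1 (chromosome 11, 60199089 to 60222581, minus strand) was highest in connecting tubule and principal-like cells, at 37.8, 37.6 and 86.5 CPM. Its next class was endothelium-like cells with 35.1, 29.9 and 44.9 CPM, and the ranges of these classes overlap. The lowest mean among the compared classes was that of intercalated-like cells, with 26.5, 15.7 and 23.0 CPM.

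The enzymes fell into separate places along the nephron. Me1 (chromosome 9, 86581371 to 86695953, minus strand), the cytosolic malic enzyme, was highest in proximal tubule-like cells with 65.6, 63.5 and 198 CPM. Acacb (chromosome 5, 114146535 to 114250761, plus strand), the acetyl-CoA carboxylase of the mitochondrial surface whose malonyl-CoA restrains fatty acid import, was a distal gene. It stood at 88.3, 109 and 167 CPM in distal convoluted tubule-like cells, at 126, 103 and 73.3 CPM in intercalated-like cells and at 110, 101 and 81.8 CPM in thick ascending limb-like cells, against 9.28, 15.6 and 11.1 CPM in proximal tubule-like cells. The ranges of those 3 distal classes overlap, and each lies above the range of the proximal class. Acaca (chromosome 11, 84129672 to 84401651, plus strand), the cytosolic carboxylase that feeds fatty acid synthesis, was more even than Acacb. It stood at 34.5, 30.03 and 29.4 CPM in proximal tubule-like cells and 18.8, 18.2 and 17.0 CPM in connecting tubule and principal-like cells. Intercalated-like cells had 26.5, 7.84 and 15.8 CPM. Endothelium-like cells, with the lowest mean among the compared classes, had 19.4, 9.56 and 10.8 CPM. Fasn (chromosome 11, 120805846 to 120824547, minus strand), fatty acid synthase, was low everywhere, at 23.3, 22.6 and 22.3 CPM in proximal tubule-like cells and between 9.98 and 22.6 CPM in the other compared classes.

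The chain-modifying enzymes were each led by a different class. Elovl6 (chromosome 3, 129532355 to 129638495, plus strand), the elongase that turns palmitate into stearate, was highest in thin limb-like cells with 65.0, 43.0 and 91.7 CPM, a class of only 83, 50 and 77 cells. Intercalated-like cells followed with 46.6, 44.2 and 66.1 CPM and connecting tubule and principal-like cells with 54.5, 35.5 and 44.7 CPM, and these 3 ranges overlap. Scd2 (chromosome 19, 44293674 to 44306864, plus strand), a stearoyl-CoA desaturase, was led by connecting tubule and principal-like cells with 344, 286 and 630 CPM. Intercalated-like cells followed among the 6 compared classes with 78.1, 90.6 and 131 CPM. Podocyte-like cells, too few to compare, had 245, 128 and 259 CPM from 8, 3 and 85 UMIs. Scd1 (chromosome 19, 44394455 to 44407879, minus strand), the main desaturase of liver, was almost absent from the tubule. Its 14, 9 and 20 UMIs over all proximal tubule-like cells correspond to 1.01, 0.826 and 1.84 CPM, against 24.5, 18.3 and 25.6 CPM in endothelium-like cells. No Scd1 UMI was found in intercalated-like cells, where a count of 0, read as at most 3 UMIs per library, allows levels of up to 3.78, 2.14 and 4.31 CPM. Lpin1 (chromosome 12, 16535669 to 16610966, minus strand), which encodes the phosphatidate phosphatase lipin-1 on the way to triglyceride, was highest in proximal tubule-like cells with 141, 72.5 and 106 CPM.

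**Figure D1:**
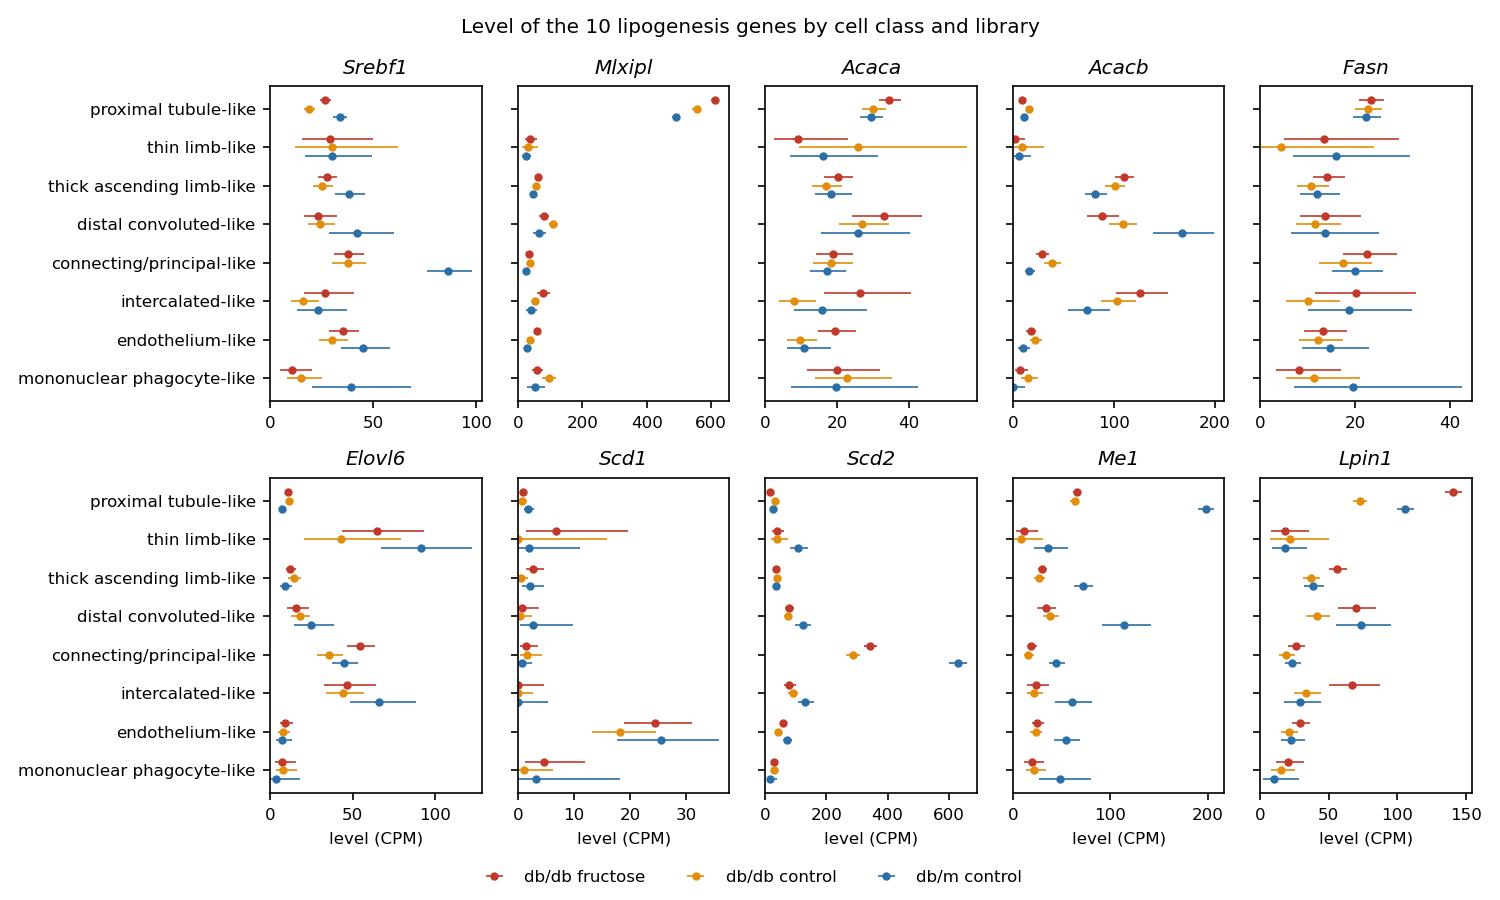
Level of each of the 10 genes in CPM (horizontal axis, linear, its own range per gene) in 8 cell classes (rows), with 1 point per library and exact 95% counting intervals as bars. Mlxipl, Me1 and Lpin1 peak in proximal tubule-like cells, Acacb in distal classes, Scd2 in connecting tubule and principal-like cells, and Scd1 in endothelium-like cells.

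The starts of 4 genes are shown, chosen by their levels and differences. Srebf1 and Me1 were lower in db/db control than in db/m control cells, and Lpin1 was higher with fructose. Mlxipl was the regulator with the highest level. Each run is the 250 bases before an annotated start, 5′ to 3′ on the gene's strand, from RefSeq on GRCm38.p6 (mm10). Capitals mark matches of 2 motifs on either strand, the E-box CACGTG, a core that ChREBP, SREBP-1 and clock factors can bind, and the CCAAT box, which binds the NF-Y factor that works with SREBPs. The windows lie at chr11:60222582-60222831 (minus strand), chr5:135089640-135089889 (plus strand), chr9:86695915-86696164 (minus strand) and chr12:16610967-16611216 (minus strand), in the order printed.
Srebf1: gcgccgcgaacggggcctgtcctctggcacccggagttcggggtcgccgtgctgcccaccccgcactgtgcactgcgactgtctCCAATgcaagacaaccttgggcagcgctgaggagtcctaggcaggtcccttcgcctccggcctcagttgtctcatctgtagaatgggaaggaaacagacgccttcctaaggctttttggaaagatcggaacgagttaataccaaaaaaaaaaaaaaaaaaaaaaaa
Mlxipl: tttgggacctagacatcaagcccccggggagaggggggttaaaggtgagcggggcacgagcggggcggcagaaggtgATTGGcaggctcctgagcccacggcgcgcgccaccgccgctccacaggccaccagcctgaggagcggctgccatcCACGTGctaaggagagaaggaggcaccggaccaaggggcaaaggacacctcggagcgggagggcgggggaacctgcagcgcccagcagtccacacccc
Me1: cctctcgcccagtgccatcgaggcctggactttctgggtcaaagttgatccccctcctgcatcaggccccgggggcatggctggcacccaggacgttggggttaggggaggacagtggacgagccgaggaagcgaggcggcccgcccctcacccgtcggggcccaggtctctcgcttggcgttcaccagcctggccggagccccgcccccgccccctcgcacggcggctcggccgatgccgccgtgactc
Lpin1: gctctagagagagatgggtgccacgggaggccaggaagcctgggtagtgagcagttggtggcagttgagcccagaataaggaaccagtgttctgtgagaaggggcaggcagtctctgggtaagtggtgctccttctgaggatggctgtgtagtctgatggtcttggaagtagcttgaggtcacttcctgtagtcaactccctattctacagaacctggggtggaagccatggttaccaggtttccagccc
The Mlxipl window held the E-box from -98 to -93 before the start, a match found in 6.02% of the 32851 promoter windows of this length, and a CCAAT box on the opposite strand from -173 to -169. The Srebf1 window held a CCAAT box from -166 to -162, and 33.9% of all windows hold one. No motif searched was found in the printed Me1 and Lpin1 windows. Srebf1 has 3 annotated starts and Mlxipl and Me1 have 2 each, and only 1 of each is printed. The counts are per gene and do not tell which start was used. A Srebf1 start not printed held a CCAAT box on the opposite strand from -30 to -26. The Me1 start not printed held such a box from -208 to -204. The sterol regulatory element TCACNCCAC is found in 1.05% of all windows. Among the 12 starts of the 8 members with an entry it matched only in the Mlxipl start not printed. The paired E-box named carbohydrate response element and the direct repeat of the LXR receptor matched in none of the 12 starts. Over all windows these spellings matched in 0 and in 0.0152%, so their absence here was near certain beforehand and says nothing about such sites. A match here is a match of letters and was not tested as a binding site.

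In proximal tubule-like cells of db/db control against db/m control mice, Me1 and Srebf1 were lower and Elovl6 was higher, and the other 6 measured members changed by less than 1.5-fold. Me1 was at 63.5 CPM in db/db control and 198 CPM in db/m control cells, a log2 ratio of -1.64 (95% interval -1.77 to -1.52), or 3.13-fold lower. Srebf1 was at 18.8 CPM in db/db control and 33.8 CPM in db/m control cells, a log2 ratio of -0.85 (-1.10 to -0.60). Elovl6 was at 11.1 CPM in db/db control and 7.35 CPM in db/m control cells, a log2 ratio of 0.60 (0.18 to 1.02) that rests on 121 and 80 UMIs and passed the 1.5-fold line by little, at 1.51-fold. It was 0.32 among cells with more early segment markers. With mitochondrial UMIs left out of the total, Me1 stood at -1.58 and Srebf1 at -0.78. Of all 8660 genes measured in these cells, 7.31% were higher and 12.0% were lower by the same rule, so 1 higher and 2 lower members of 9 lie near the background. Scd1 was not measured.

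Fasn and Acaca, the fatty acid synthesis core, stayed level in this comparison. Fasn had a log2 ratio of 0.02 (-0.25 to 0.28) and Acaca one of 0.03 (-0.20 to 0.26), so counting error leaves room for little more than a 1.2-fold difference in either direction. Lpin1 was at 72.5 CPM in db/db control and 106 CPM in db/m control cells, a log2 ratio of -0.54 (-0.68 to -0.41), just inside the line at 1.46-fold. Mlxipl, at 556 CPM in db/db control and 490 CPM in db/m control cells, differed by a log2 ratio of 0.18 (0.13 to 0.23). Median log2 ratios were 0.03 over the 9 measured members and 0.01 over all measured genes.

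Proximal tubule-like cells differed in segment markers between the libraries, and this changed what Mlxipl and Lpin1 showed. Cells with more early segment markers made up 78.3% in db/db fructose, 84.9% in db/db control and 52.7% in db/m control, and cells with more late ones 17.1%, 9.40% and 39.4%. The late markers include genes that respond to androgens, so these shares cannot be read as anatomy alone. Mlxipl was higher in late than in early cells of every library: 981 against 517 CPM in db/db fructose, 904 against 502 CPM in db/db control and 711 against 317 CPM in db/m control. Within early cells the Mlxipl log2 ratio of db/db control over db/m control was 0.66, past the 1.5-fold line, and within late cells it was 0.35, both larger than the 0.18 of the whole class. Lpin1 was also higher in late cells, with 207 against 125 CPM in db/db fructose, 87.3 against 69.5 CPM in db/db control and 144 against 75.3 CPM in db/m control. Its log2 ratio of db/db control over db/m control was -0.12 within early cells and -0.72 within late cells. Me1 stayed lower within both, with log2 ratios of -1.46 in early and -1.63 in late cells, and so did Srebf1, with -0.89 and -0.97.

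**Figure D2:**
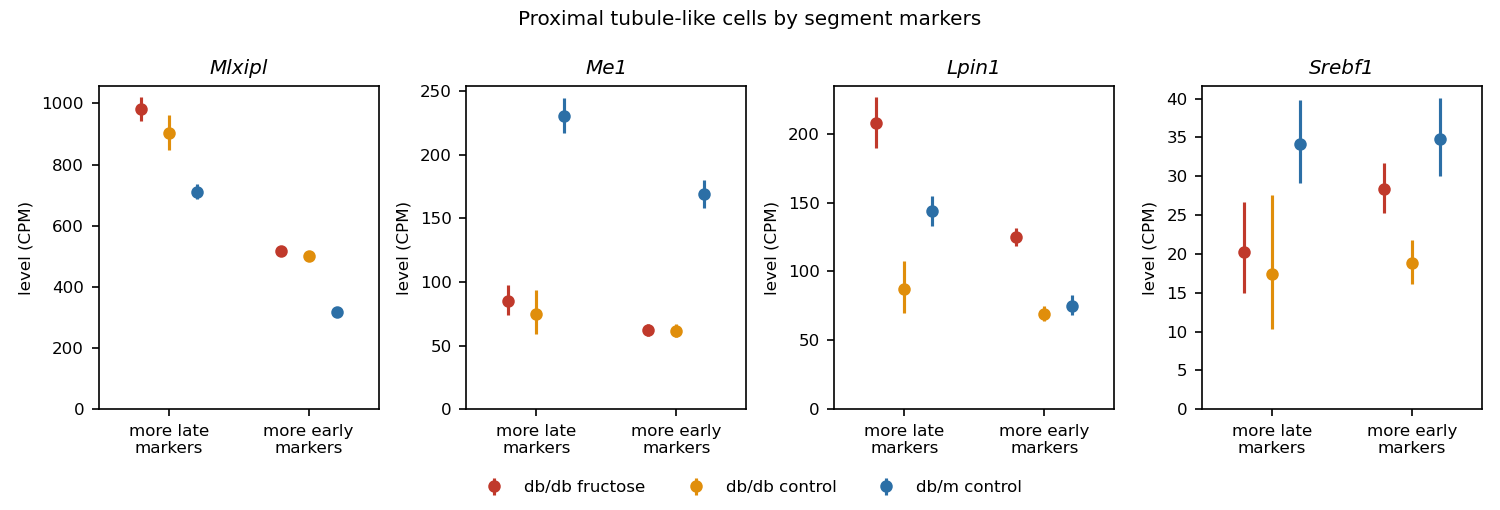
Levels in CPM (vertical axis, linear from 0) of 4 genes in proximal tubule-like cells with more late or more early segment marker UMIs, 1 point per library with exact 95% counting intervals. Mlxipl is higher in late than in early cells of each library, while Me1 in both kinds of cells separates the db/m control library from the 2 db/db libraries.

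The libraries also filled different proximal tubule clusters. Cells of db/db fructose lay mainly in clusters 0, 1, 6 and 3, those of db/db control in clusters 3 and 6, and those of db/m control in clusters 2 and 25. Clusters 1 and 6 held cells of all 3 libraries, with 278 and 344 cells of db/db control and db/m control in cluster 1 and 2979 and 189 in cluster 6. Within these clusters the Me1 log2 ratio of db/db control over db/m control was -0.88 and -0.96, less than the -1.64 of the whole class. Within cluster 1 Srebf1 was at 28.3 CPM in db/db control and 27.8 CPM in db/m control from 18 and 17 UMIs, a log2 ratio of 0.03 (-1.01 to 1.08) whose interval includes the -0.85 of the class. Within cluster 6 its log2 ratio was -1.04 (-1.99 to 0.07) from 88 and 10 UMIs. Mlxipl was among the leading genes of several of these clusters, so its differences between clusters are not given as results. Within cluster 1 it was at 493 CPM in db/db control and 301 CPM in db/m control, from 313 and 184 UMIs. Within cluster 6 it was at 301 and 305 CPM, from 1484 and 83 UMIs.

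As counted, before any free RNA was subtracted, Me1 was lower in db/db control than in db/m control in all 6 compared classes, and Srebf1 in 5 of 6. Outside the proximal tubule the log2 ratios of Me1 were -1.41 in thick ascending limb-like, -1.57 in distal convoluted tubule-like, -1.52 in connecting tubule and principal-like, -1.45 in intercalated-like and -1.22 in endothelium-like cells. In thick ascending limb-like cells, for example, Me1 was at 27.0 CPM in db/db control and 71.9 CPM in db/m control. Free RNA from broken cells bears on these values, since proximal tubule markers in the other classes reached 23.0% to 69.6% of their library-wide level. Scaled by those shares, free RNA alone would give 18.5 CPM of Me1 in db/db control and 56.1 CPM in db/m control in thick ascending limb-like cells. With it subtracted the Me1 log2 ratio was -0.93 there and -0.10 in endothelium-like cells. The same scaling gives 114 CPM of Mlxipl in thick ascending limb-like cells of db/m control, where 46.5 CPM was counted, so it can overstate free RNA.

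Srebf1 had its largest difference where its level was highest. In connecting tubule and principal-like cells it was at 37.6 CPM in db/db control and 86.5 CPM in db/m control, a log2 ratio of -1.20 (-1.57 to -0.85). It was lower within both clusters of that class, by -0.99 in cluster 9 and -1.22 in cluster 10. In distal convoluted tubule-like cells Srebf1 had a log2 ratio of -0.81 (-1.47 to -0.12). Ratios of -0.59 in thick ascending limb-like cells, -0.59 in endothelium-like cells and -0.55 in intercalated-like cells lie at the 1.5-fold line, the first and second just past it and the last just short of it. The free RNA estimate of Srebf1 was 9.41 CPM in db/db control and 18.2 CPM in db/m control in thick ascending limb-like cells. It was 14.2 and 28.9 CPM in distal convoluted tubule-like cells and 7.91 and 14.9 CPM in endothelium-like cells. With these estimates subtracted, the Srebf1 differences in thick ascending limb-like and endothelium-like cells fall under the 1.5-fold line. In distal convoluted tubule-like cells the estimate was 59.0% of the counted level in db/db control and 68.6% in db/m control.

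Scd2 followed in the same cells. Connecting tubule and principal-like cells had 286 CPM in db/db control and 630 CPM in db/m control, a log2 ratio of -1.14 (-1.27 to -1.01) from 677 and 1776 UMIs. Cluster 9 gave -1.13 and cluster 10 gave -0.996, so Scd2 was lower within each cluster. Scd2 was also lower in distal convoluted tubule-like cells, with 72.7 CPM in db/db control and 122 CPM in db/m control, and in endothelium-like cells, with 42.4 and 71.2 CPM. Its log2 ratio was -0.75 in either class, and with free RNA subtracted it was -0.57 and -0.58, under the 1.5-fold line. Scd1 in endothelium-like cells, its leading class, had a log2 ratio of -0.48 (-1.17 to 0.21) from 44 and 33 UMIs, which counting error alone leaves undecided.

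Acacb did not move one way. In connecting tubule and principal-like cells it was higher, with 38.8 CPM in db/db control and 16.3 CPM in db/m control and a log2 ratio of 1.25 (0.73 to 1.80). In endothelium-like cells it was higher with 22.0 CPM in db/db control and 10.1 CPM in db/m control, a log2 ratio of 1.13 (0.23 to 2.13) from 53 and 13 UMIs. The free RNA estimate in that class, which can be too high, was 15.6 CPM in db/db control and 10.3 CPM in db/m control. The latter is no lower than the level counted there. In distal convoluted tubule-like cells, the class with the highest mean level, Acacb was lower with 109 CPM in db/db control and 167 CPM in db/m control, a log2 ratio of -0.62 (-0.94 to -0.30). Also in these cells Lpin1 was lower, with 41.5 CPM in db/db control and 73.4 CPM in db/m control, while Mlxipl was higher, with 111 and 65.3 CPM. Mlxipl there was below its free RNA estimate of 161 and 181 CPM. In thick ascending limb-like cells Elovl6 was higher with 14.3 CPM in db/db control and 9.16 CPM in db/m control, and the interval of its log2 ratio of 0.64 (-0.06 to 1.37) includes 0.

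Over the 6 classes 54 of the 60 pairs of a member and a class were measured, and 5 were higher and 18 lower in db/db control than in db/m control. Of all 54452 measured pairs of a gene and a class, 8.36% were higher and 11.0% lower. The lower pairs of the members are mainly repeats of Me1 and Srebf1, and a gene counted in several classes of 1 library is not an independent observation. In intercalated-like cells the lower calls of Acaca and Fasn rest on 11 against 11 and 14 against 13 UMIs, and both intervals include 0.

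**Figure D3:**
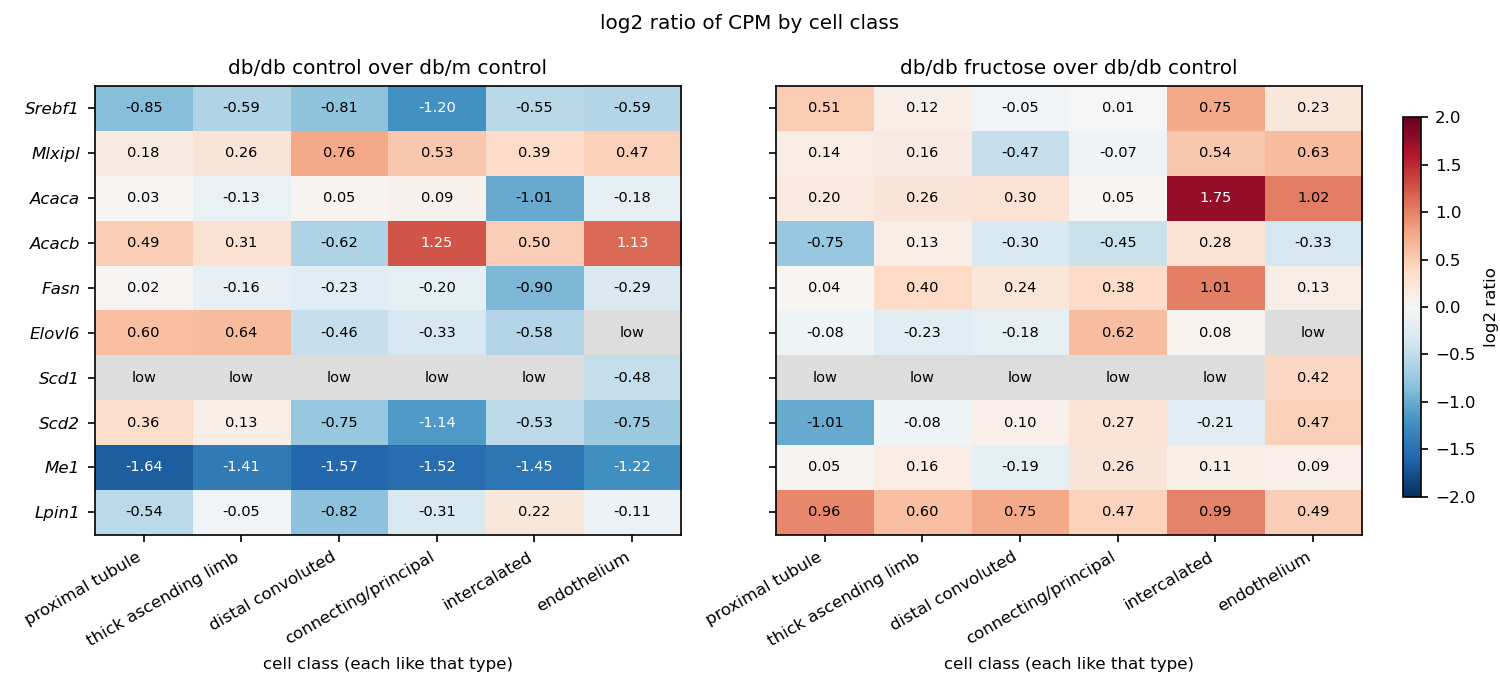
Log2 ratio of CPM for each gene (rows) in 6 classes (columns), db/db control over db/m control on the left and db/db fructose over db/db control on the right; blue is lower and red higher in the first-named library, and grey cells marked low were under 10 CPM in both. The Me1 row is blue in all 6 classes on the left and near 0 on the right, and the Lpin1 row is red in all 6 on the right.

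With fructose, Lpin1 was the member that was higher in proximal tubule-like cells of db/db mice, and Scd2 and Acacb were lower. Lpin1 was at 141 CPM in db/db fructose and 72.5 CPM in db/db control cells, a log2 ratio of 0.96 (0.84 to 1.08), or 1.94-fold. Scd2 was at 15.7 CPM in db/db fructose and 31.6 CPM in db/db control cells, a log2 ratio of -1.01 (-1.26 to -0.76). Acacb was at 9.28 CPM in db/db fructose and 15.6 CPM in db/db control cells, a log2 ratio of -0.75 (-1.09 to -0.41). Of 8941 genes measured here, 11.2% were higher and 1.38% lower. Taken over every measured gene, the median log2 ratio was itself 0.25, beside the smaller mitochondrial share of the fructose library, so a ratio near 0.25 is no change relative to the other genes. Median-of-ratios size factors, which centre the genes on each other, put Lpin1 at 0.71, Scd2 at -1.26 and Acacb at -0.998.

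Lpin1 was higher with fructose within both kinds of proximal cells and within both shared clusters. Its log2 ratio of db/db fructose over db/db control was 0.85 in early and 1.25 in late cells, and 0.77 in cluster 1 and 0.94 in cluster 6. The Lpin1 level of 141 CPM in db/db fructose was also above the 106 CPM of db/m control. With mitochondrial UMIs left out of the total the log2 ratio was 0.78. The free RNA estimate for Scd2 in proximal tubule-like cells was 17.2 CPM in db/db fructose, above the level counted, and 24.7 CPM in db/db control, below it. For Acacb it was 10.0 and 16.0 CPM, above the level counted in both. Distal nephron markers stood at 27.2% of their library-wide level in proximal tubule-like cells of db/db fructose and at 36.8% in db/db control. No Acacb was left in either library when that share was subtracted.

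Me1 and Fasn differed little between the diets. Me1 was at 65.6 CPM in db/db fructose and 63.5 CPM in db/db control proximal tubule-like cells, a log2 ratio of 0.05 (-0.10 to 0.19), and between -0.19 and 0.26 in the other 5 classes. Fasn had a log2 ratio of 0.04 (-0.20 to 0.29), Acaca of 0.20 (0.00 to 0.41) and Elovl6 of -0.08 (-0.44 to 0.28). Mlxipl, the sugar-responsive regulator, was at 613 CPM in db/db fructose and 556 CPM in db/db control, a log2 ratio of 0.14 (0.09 to 0.19) that became -0.11 with size factors. Srebf1 was at 26.7 CPM in db/db fructose and 18.8 CPM in db/db control, a log2 ratio of 0.51 (0.26 to 0.76). This is 1.42-fold and under the line, and it was 0.26 with size factors. The free RNA estimate of Srebf1 was 7.66 CPM in db/db fructose and 8.11 CPM in db/db control. Subtracting it moved the difference past the line. The median over the 9 measured members was 0.05, beside 0.25 over all measured genes.

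**Figure D4:**
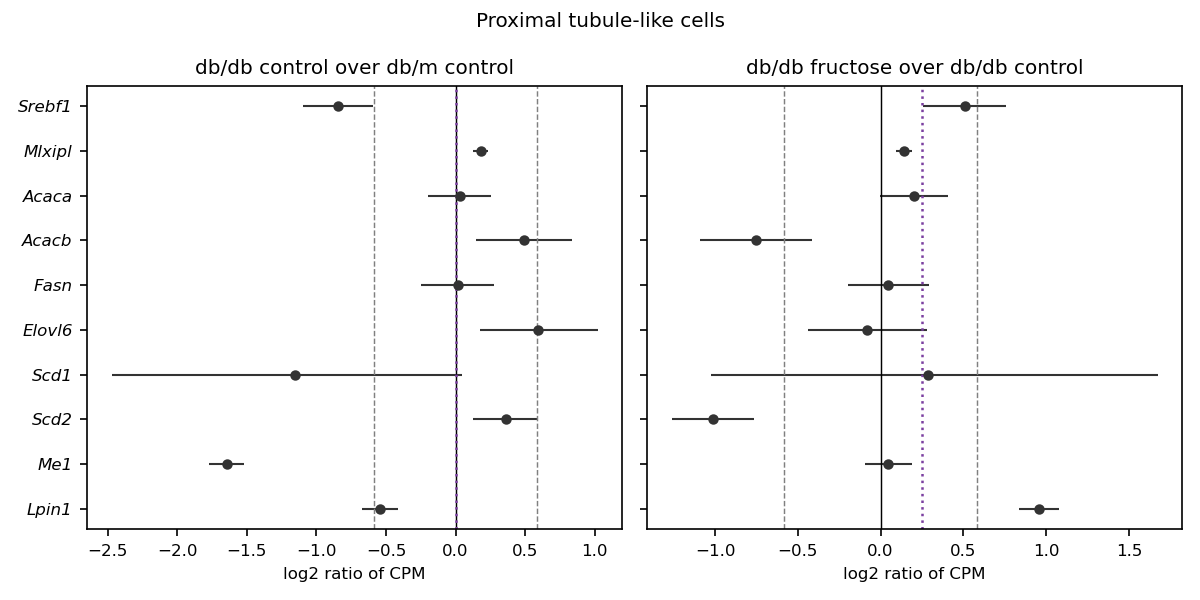
Log2 ratio of CPM in proximal tubule-like cells for each gene (rows), db/db control over db/m control on the left and db/db fructose over db/db control on the right, with exact 95% counting intervals as bars. Dashed lines mark 1.5-fold and the dotted line the median of all measured genes; Me1 and Srebf1 lie left of the dashed line on the left, and Lpin1 lies right of it on the right.

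Outside the proximal tubule, Lpin1 and Acaca were the only members called higher with fructose in more than a single class. Lpin1 was higher in thick ascending limb-like cells with 56.3 CPM in db/db fructose and 37.2 CPM in db/db control, in distal convoluted tubule-like cells with 69.8 and 41.5 CPM, and in intercalated-like cells with 66.8 and 33.5 CPM. The log2 ratios of 0.60, 0.75 and 0.99 became 0.40, 0.60 and 0.72 with size factors, so the first no longer passed the line. Free RNA subtraction gave 0.24, 0.51 and 0.85. In endothelium-like cells Acaca was at 19.4 CPM in db/db fructose and 9.56 CPM in db/db control, a log2 ratio of 1.02 (0.29 to 1.79) from 53 and 23 UMIs. In intercalated-like cells Acaca was at 26.5 CPM in db/db fructose and 7.84 CPM in db/db control, a log2 ratio of 1.754 (0.64 to 2.95) from 21 and 11 UMIs. These Acaca ratios were 0.83 and 1.48 with size factors. The free RNA estimate was 7.59 CPM in endothelium-like and 7.57 CPM in intercalated-like cells of db/db control, most of what was counted there, and subtracting it gave ratios of 2.44 and 5.95 that rest on the small remainder. Elovl6 was higher in connecting tubule and principal-like cells with 54.5 CPM in db/db fructose and 35.5 CPM in db/db control, a log2 ratio of 0.62 that fell to 0.37 with size factors. In endothelium-like cells Mlxipl had 59.9 CPM in db/db fructose and 38.7 CPM in db/db control, both below the free RNA estimate of 88.4 and 89.7 CPM. In their leading classes, Srebf1 had a log2 ratio of 0.01 (-0.41 to 0.43) and Scd2 one of 0.27 (0.13 to 0.41) in connecting tubule and principal-like cells, Acacb one of -0.30 (-0.62 to 0.01) in distal convoluted tubule-like cells, and Scd1 one of 0.42 (-0.15 to 1.00) in endothelium-like cells. Srebf1 in intercalated-like cells, with 21 and 22 UMIs, had a log2 ratio of 0.75 (-0.18 to 1.68). Fasn there, with 16 and 14 UMIs, had one of 1.01 (-0.12 to 2.16). In intercalated-like cells 4 of 9 measured members were higher. Of all 9618 genes measured in that class, 31.2% were higher and 5.87% lower, with a median log2 ratio of 0.32.

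Over the 6 classes 10 of 54 measured pairs of a member and a class were higher and 2 were lower with fructose, against 15.7% and 2.81% of all 55781 measured pairs. With size factors the members' counts became 6 higher and 4 lower, and with mitochondrial UMIs left out of the total 5 higher and 4 lower. Both comparisons use the db/db control library, so a low or high value in it moves them in opposite directions.

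**Figure D5:**
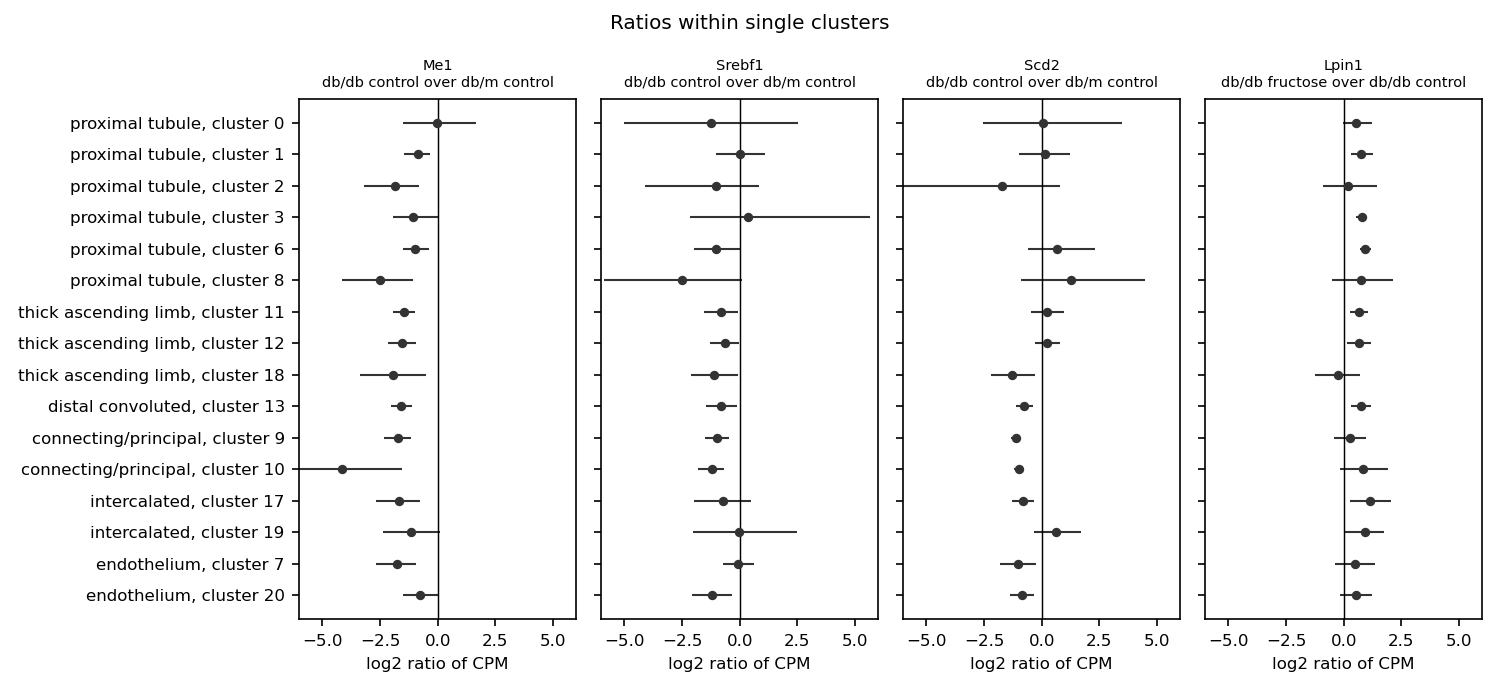
Log2 ratio of CPM within single clusters (rows) for Me1, Srebf1 and Scd2, db/db control over db/m control, and for Lpin1, db/db fructose over db/db control, with exact 95% counting intervals (axis limited to -6 to 6). Clusters with 0 UMIs in either library have no point; the Scd2 points of connecting tubule and principal-like clusters 9 and 10 lie at -1.13 and -0.996.

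Beside the members, 40 other genes of the pathway in 6 lists were read in proximal tubule-like cells. In db/db control against db/m control, 35 were measured, 3 were higher and 4 lower, against 7.31% higher and 12.0% lower of all measured genes, and their median log2 ratio was -0.06. The higher ones are Pklr, liver-type pyruvate kinase and a ChREBP target in liver, with 41.8 CPM in db/db control and 14.6 CPM in db/m control, Txnip, a glucose-induced thioredoxin inhibitor and ChREBP target, with 402 and 166 CPM, and Gpam, which starts glycerolipid assembly, with 127 and 65.5 CPM. Their log2 ratios were 1.52, 1.28 and 0.95. Of the 4 genes in the list of ChREBP partners and targets, 2 were higher and 1 lower: Mlx, the obligate partner of ChREBP, was at 22.8 CPM in db/db control and 39.2 CPM in db/m control, while its log2 ratio was -0.23 within cluster 1 and 0.21 within cluster 6. Lower too were Idh1, a cytosolic source of NADPH like Me1, with 191 CPM in db/db control and 335 CPM in db/m control, the desaturase Fads2 with 37.2 and 64.3 CPM, and Insig1, which retains SREBPs in the endoplasmic reticulum, with 16.3 and 25.5 CPM. Within the 1.5-fold line among the supply genes, Acss2 was at 152 CPM in db/db control and 158 CPM in db/m control, and Acly at 68.0 and 66.5 CPM. The citrate carrier Slc25a1 was at 37.3 CPM in db/db control and 50.6 CPM in db/m control, a log2 ratio of -0.44 (-0.63 to -0.25).

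With fructose, 37 of these 40 genes were measured, 2 were higher and none was lower, against 11.2% higher and 1.38% lower of all measured genes. Their median log2 ratio was 0.30, near that of all genes. Insig1 was at 39.1 CPM in db/db fructose and 16.3 CPM in db/db control, a log2 ratio of 1.27 (1.02 to 1.52) that was 1.02 with size factors. Lpin3, a relative of Lpin1, was at 11.8 CPM in db/db fructose and 6.15 CPM in db/db control, a log2 ratio of 0.94 (0.52 to 1.37) that was -0.36 within cluster 1 and 1.17 within cluster 6. None of the 4 genes in the list of ChREBP partners and targets was higher or lower with the diet, and Txnip was at 372 CPM in db/db fructose and 402 CPM in db/db control. Acly, ATP citrate lyase, was at 51.3 CPM in db/db fructose and 68.0 CPM in db/db control, a log2 ratio of -0.41 that became -0.65, past the 1.5-fold line, with size factors. Thrsp, a lipogenic factor known from liver, was under the measuring limit with 29 UMIs in db/db fructose and 1 in db/db control, a log2 ratio of 4.51 with an interval of 1.91 to 9.86.

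The genes whose levels ran most like those of the members over the 18 points given by 6 classes in 3 libraries mirrored the class patterns. Points of 1 library share its depth, and the correlations of log2(CPM + 1) are descriptions. Mlxipl was most like Slc34a1, the proximal phosphate transporter, with r = 0.99, Me1 like Cyp2e1 with r = 0.97, and Lpin1 like Dennd1a with r = 0.96. Elovl6 was most like Rhbg, an ammonia transporter of the distal nephron, with r = 0.96, Acacb like Grk3 with r = 0.96, Scd2 like Pkig with r = 0.93, and Srebf1 like Metrnl with r = 0.83. Acaca, Fasn and Scd1 were under the minimum of 50 CPM for this description.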

How the data were processed

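Whole kidney cells were profiled in 3 droplet libraries, 1 per group. The deposited values are UMI counts per gene and barcode, which the authors made with Cell Ranger 6.0.0 on mm10, per the submitters' processing notes; the strand setting of the counting is not given in the sources used here, so Srebf1, Mlxipl, Acaca, Elovl6 and Me1 may hold reads of genes that overlap them on the other strand (Rai1, Gm43500, Gm11437, Gm35986 and A330041J22Rik). The files held 20383, 26513 and 13524 barcodes and 42028885, 52704335 and 31660184 UMIs for db/db fructose, db/db control and db/m control, and 0 columns of other samples.

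Barcodes under 200 genes or over 50% mitochondrial UMIs were left out, and the highest Scrublet scores were removed at 0.8% per 1000 barcodes (3324, 5624 and 1463 barcodes). With scanpy 1.11.5, 2000 variable genes, 30 principal components and 15 neighbours gave 29 Leiden clusters at resolution 1, over all 3 libraries at once, with no batch correction. Clusters were named from 20 marker lists, and the naming rule was revised once after the clusters were seen. Raw counts were summed per class and library. With 1 library per group no test was made; ratios have exact conditional binomial intervals and levels exact Poisson intervals (scipy 1.17.1). The interval code was checked on simulated data. Free RNA was estimated per class and library as the share of the library-wide level that markers of other classes kept.

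The members, gene lists and comparisons were chosen with earlier results of these data known. All members are named in proximal tubule-like cells and in their highest class; elsewhere members with at least 20 UMIs in a library and a 1.5-fold difference are named, plus up to 3 genes per pathway list with at least 20 UMIs, and 3 most similar genes per member were computed for members reaching 50 CPM. Endothelial Acacb, intercalated Acaca and Fasn, Acss2 and Acly beside Me1, and the ratios at the 1.5-fold line were named after their values were seen. Gene positions are from GENCODE M21 on mm10.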

Additional observations from a re-analysis of the deposited data

Results flagged for a closer look

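Acacb, whose product makes malonyl-CoA at the mitochondrial surface, differed in opposite directions between classes in db/db control against db/m control. Its log2 ratio was 1.25 in connecting tubule and principal-like cells and 1.13 in endothelium-like cells, and -0.62 in distal convoluted tubule-like cells. The classes stand out because the same pair of libraries gave calls of opposite sign in them; with 1 library per group the difference between classes was not tested. With free RNA subtracted, scaled by proximal tubule markers only, the ratio was 1.68 in connecting tubule and principal-like cells and -1.09 in distal convoluted tubule-like cells. None could be given for endothelium-like cells, where no Acacb was left in db/m control. Distal convoluted tubule markers summed to 1187 CPM in connecting tubule and principal-like cells of db/db control and 572 CPM in db/m control. In distal convoluted tubule-like cells they summed to 19823 and 27980 CPM, and connecting tubule and principal markers to 3294 and 1844 CPM. Whether RNA of other distal cells bears on these Acacb ratios was not tested. Within clusters 9 and 10 of the connecting tubule and principal-like class the ratio was 0.73 and 1.62.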

How the results depend on the processing

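No paired analysis was possible because each group is 1 library, and for the same reason no replicate could be left out. Single ratios numbered 82 and were recomputed in 875 checks: 712 stayed within their counting interval, 160 moved beyond it and 3 were counted as reversed. The 3 do not take in every change of sign. Proximal tubule Mlxipl with fructose, for example, turned negative with size factors. In proximal tubule-like cells of db/db control against db/m control, Srebf1 was 0.0291 within cluster 1 and Mlx was 0.21 within cluster 6; Lpin3 in db/db fructose against db/db control was -0.36 within cluster 1. The cause was not tested. Restricting to cluster 1 or 6 was chosen after seeing the data, as was leaving mitochondrial UMIs out.

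Counts of members in proximal tubule-like cells, db/db control against db/m control (1 higher, 2 lower), became 0 higher at Leiden resolution 2 and with cells weighted equally, 0 higher and 1 lower both where 50 CPM was required and at a 2-fold line, and 2 higher and 1 lower within cluster 1. Over member and class pairs (5 higher, 18 lower) they became 3 higher with cells weighted equally, 1 and 11 at 50 CPM, and 2 and 9 at 2-fold. With fructose in proximal tubule-like cells (1 higher, 2 lower) they became 2 and 1 after free RNA subtraction, 0 lower at 50 CPM, 0 and 1 at 2-fold, 2 higher in early cells and 1 lower in late cells. Over pairs (10 higher, 2 lower) they became 4 lower with at most 30% mitochondrial UMIs, with at least 500 genes per cell and at resolution 2, 6 and 4 with size factors, 6 lower after free RNA subtraction, 6 and 0 at 50 CPM, 3 and 1 at 2-fold, and 5 and 4 without mitochondrial UMIs. The stricter limits leave fewer genes by construction.

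Depth limits Scd1 in tubule classes and Acaca, Fasn and Srebf1 in intercalated-like cells, which rest on 22 UMIs or fewer per library.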

Other observations

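The largest cluster left without a name, with 487 cells of db/db fructose, 3077 of db/db control and 103 of db/m control, had Me1 at 92.1 CPM in db/db fructose, 52.0 CPM in db/db control and 154 CPM in db/m control. Another, whose leading genes include distal tubule markers, held 274, 631 and 198 cells. Scd2 there was at 172 CPM in db/db fructose, 132 CPM in db/db control and 252 CPM in db/m control, and Srebf1 at 33.0, 24.2 and 65.9 CPM. These cells entered no comparison above.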
